A study of Mus musculus with 2 samples.

Results

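The 9 genes described here encode immune checkpoint ligands and receptors, and they were taken by symbol from the 32285 genes of the count matrices. The 4 ligands were Cd274 (PD-L1), Pdcd1lg2 (PD-L2), Cd80 and Cd86. The 5 receptors were Pdcd1 (PD-1), Ctla4, Lag3, Tigit and Havcr2 (TIM-3). Ligands were read in neutrophils, macrophages, dendritic cells and keratinocytes, and receptors in T cells with a UMI (a counted transcript molecule) of Cd3d, Cd3e or Cd3g. All 9 genes were detected, and all were kept whatever their level.

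The data were 2 droplet-based single-cell RNA libraries of mouse dorsal skin squamous tumours. Ctrl-D came from Eed flox/flox mice given ethanol and the carcinogen DMBA. Eed iKO-D came from K14CrERT2;Eed flox/flox mice given hydroxyl-tamoxifen and DMBA. Both carried the floxed allele, both were 5 months old, and both received weekly DMBA over at most 20 weeks. The Cre recombinase was driven by the keratin 14 promoter, which is active in basal keratinocytes. EED belongs to Polycomb repressive complex 2, which silences genes, and the series title names oncogenic Ras, EED and the tumour niche. The labels call the material epidermal cancer cells, but whole tumours were dissociated and the libraries held many other cell types. Genotype and tamoxifen differed together, and the number and sex of the animals were not given. With 1 library per group no difference has a replicate check, no test was possible and no p-value was computed.

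T cells respond when the antigen receptor is engaged together with CD28, whose ligands are CD80 and CD86. CTLA-4 binds the same ligands and restrains the response, and PD-1 does so when it binds PD-L1 or PD-L2. LAG-3, TIGIT and TIM-3 are further inhibitory receptors of activated and regulatory T cells, and TIM-3 is also found on myeloid cells. Interferon-gamma is a known inducer of Cd274 in many cell types.

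The promoters of 3 genes on which the keratinocyte-like results turn are shown, each as the 250 bases before the RefSeq start in build GRCm38.p6, 5′ to 3′ on the gene's strand. They lie at chr16:38458683-38458932 (plus strand) for Cd80, chr19:29367188-29367437 (plus strand) for Cd274 and chr1:94052554-94052803 (minus strand) for Pdcd1. Capitals mark a match to TGANTCA, a loose form of the AP-1 motif that allows any middle letter. The stricter motif has C or G there, and the marked match in Cd80 has T.
Cd80: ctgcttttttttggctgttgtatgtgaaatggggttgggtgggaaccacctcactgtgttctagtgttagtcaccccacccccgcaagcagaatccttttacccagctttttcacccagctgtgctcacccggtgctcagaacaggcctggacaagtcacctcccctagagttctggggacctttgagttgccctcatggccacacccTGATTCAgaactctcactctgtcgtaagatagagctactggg
Cd274: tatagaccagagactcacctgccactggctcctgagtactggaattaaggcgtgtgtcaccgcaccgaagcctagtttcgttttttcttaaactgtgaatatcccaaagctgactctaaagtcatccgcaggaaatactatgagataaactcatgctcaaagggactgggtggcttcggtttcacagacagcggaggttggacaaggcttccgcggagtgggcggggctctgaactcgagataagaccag
Pdcd1: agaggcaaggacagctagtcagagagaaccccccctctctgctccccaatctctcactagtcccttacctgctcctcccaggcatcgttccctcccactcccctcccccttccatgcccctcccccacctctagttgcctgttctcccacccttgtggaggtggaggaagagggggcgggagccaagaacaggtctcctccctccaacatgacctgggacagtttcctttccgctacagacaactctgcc
Of the 9 genes, 7 were in the promoter table. TGANTCA was present in the promoters of Cd80 and Havcr2, and in 6.75% of 32851 mouse promoters of this length searched on both strands. A match is a description of the letters only. The Cd274 promoter held 11 CpG dinucleotides and those of Cd80 and Pdcd1 held 3 each, against a median of 6 over all promoters.

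In the mm10 gene annotation Cd274 (chr19:29367455-29388095) and Pdcd1lg2 (chr19:29410919-29471161) are neighbours on the plus strand, 22824 bp apart. Each overlaps an antisense gene. Cd80 (chr16:38455561-38496335, plus strand), Cd86 (chr16:36603869-36666081, minus strand) and Tigit (chr16:43648867-43664146, minus strand) lie on chromosome 16. Pdcd1 (chr1:94038305-94052553, minus strand) and Ctla4 (chr1:60887000-60915832, plus strand) lie on chromosome 1. Lag3 is at chr6:124904361-124911705 on the minus strand and Havcr2 at chr11:46454935-46481255 on the plus strand.

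Ctrl-D held 120500892 UMIs and Eed iKO-D 289511009, and 7390 and 21484 of their cells were used. Of the Eed iKO-D cells 56.2% fell in clusters that could not be named, against 6.94% in Ctrl-D. The libraries shared 40 cell barcodes. Scrublet marked no doublets in Eed iKO-D and had therefore not worked there, so doublets remain in that library. Eed itself stood at 53.0 CPM (a gene's UMIs with every class scaled to 1 common total) in Ctrl-D keratinocyte-like cells and 47.3 CPM in Eed iKO-D. The labels do not name the deleted exons, and 3' tags may lie outside them, so Eed checks nothing here. Parentheses hold exact 95% intervals for counting error, which leave out differences between animals. Those of CPM and ratios treat every UMI as independent, so they also leave out the spread between cells and may be too narrow. A gene counted as higher or lower when the libraries differed at least 1.5-fold, among genes with at least 20 UMIs over both libraries.

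The classes were checked against defining markers. Neutrophil-like cells had the calprotectin genes S100a8 and S100a9 at 45729 CPM in Ctrl-D and 34176 CPM in Eed iKO-D, and C1q genes at 0 and 33.5 CPM. Macrophage-like cells had the C1q genes at 3985 and 4138 CPM. Dendritic cell-like cells were led by Cd207, H2-M2 and Ccl22, of which Cd207 marks Langerhans cells, and T cell-like cells by Cd3g, Icos and Cd3d. Summed Cd3 in the T cell-like class was 2566 and 1043 CPM.

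Keratinocyte-like cells of Eed iKO-D held far more Cd80 than those of Ctrl-D. Cd80, a ligand of CD28 and CTLA-4, was at 1.58 CPM in 5431 Ctrl-D cells (158 UMIs) and at 69.7 CPM in 3240 Eed iKO-D cells (9590 UMIs). The ratio of Eed iKO-D over Ctrl-D was 44.0 (37.6 to 51.9). A Cd80 UMI was present in 2.47% and 54.2% of these cells. Their median depths differed, at 15640 and 34791 UMIs per cell. After each cell was thinned to 1500 UMIs the shares were 0.188% and 8.48%. Fibroblast-like cells served as a comparison level, since free RNA can give such UMIs in any cell. The part of free RNA in either class was not tested. Fibroblast-like cells had Cd80 at 4.84 CPM in Ctrl-D and 9.87 CPM in Eed iKO-D, at median depths of 8110 and 24781 UMIs. A Cd80 UMI was in 2.86% and 15.1% of them, or 1.26% and 1.37% after thinning. By CPM keratinocyte-like cells were thus below the fibroblast-like level in Ctrl-D and above it in Eed iKO-D.

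The other ligands were at or below the fibroblast-like level in keratinocyte-like cells, except Cd86 in Ctrl-D, where fibroblast-like cells had 0 UMIs. Cd274 stood at 8.71 CPM in Ctrl-D and 3.46 CPM in Eed iKO-D, with fibroblast-like levels of 9.25 and 9.99 CPM. Pdcd1lg2 was at 0.25 and 0.0654 CPM, on 25 and 9 UMIs. Cd86 was at 0.12 and 1.24 CPM, and fibroblast-like cells of Eed iKO-D had 7.42 CPM. Of the 4 ligands 2 were higher and 2 lower, while 38.5% of all 19554 genes were higher and 16.8% lower in these cells. Differences of at least 1.5-fold were thus common among all genes.

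**Figure D1:**
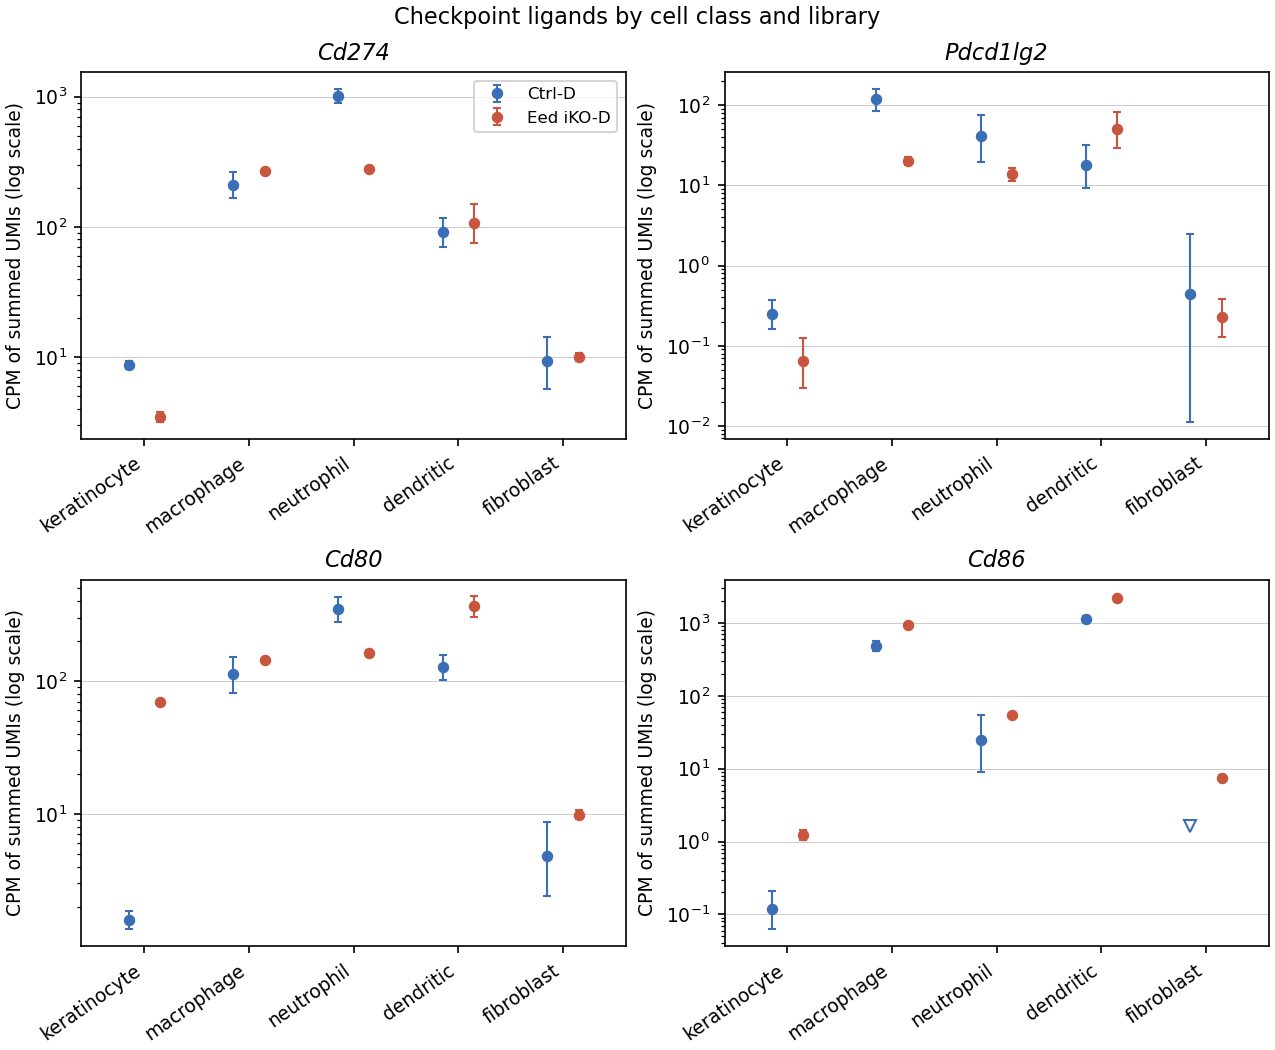
Level of each ligand (CPM, log axis) in each cell class of Ctrl-D and Eed iKO-D, with exact 95% Poisson intervals as bars and open triangles for 0 UMIs at the upper limit. Cd80 in keratinocyte-like cells lay at 1.58 CPM in Ctrl-D and 69.7 CPM in Eed iKO-D.

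Cd80 was uneven among the keratinocyte-like clusters of Eed iKO-D. It was highest in the cluster led by Prl8a9, Hmga2 and Lama3, at 93.1 CPM against 12.0 CPM in Ctrl-D, on 7095 and 16 UMIs, a ratio of 7.77 (4.78 to 13.6). In that cluster 53.0% of the 1399 Eed iKO-D cells had at least 3 Cd80 UMIs, and 1 cell had 54. The Lce3d-led cluster had 58.6 CPM against 1.07 CPM in Ctrl-D, a ratio of 54.7 (21.3 to 201). A cluster found in Eed iKO-D, led by BC037156, had 58.2 CPM over 411 cells. The Chil4-led, Tslp-led and Krt15-led clusters of Eed iKO-D had 9.19, 9.07 and 2.39 CPM, at or below the fibroblast-like 9.87 CPM. The median log2 ratio within the clusters that both libraries filled was 2.84, against 5.46 over all keratinocyte-like cells, so the difference within clusters was smaller than the pooled one. Of the ligands with at least 20 UMIs, the Chil4-led cluster had 1 of 2 higher (30.6% of all genes higher, 13.5% lower), the Tslp-led cluster 1 of 2 higher and 1 lower (13.6% and 14.4%), the Prl8a9-led cluster 2 of 3 higher and 1 lower (28.3% and 16.6%), the Krt15-led cluster 2 of 2 higher (32.7% and 17.6%), and the Lce3d-led cluster 2 of 3 higher and 1 lower (55% and 9.85%).

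**Figure D2:**
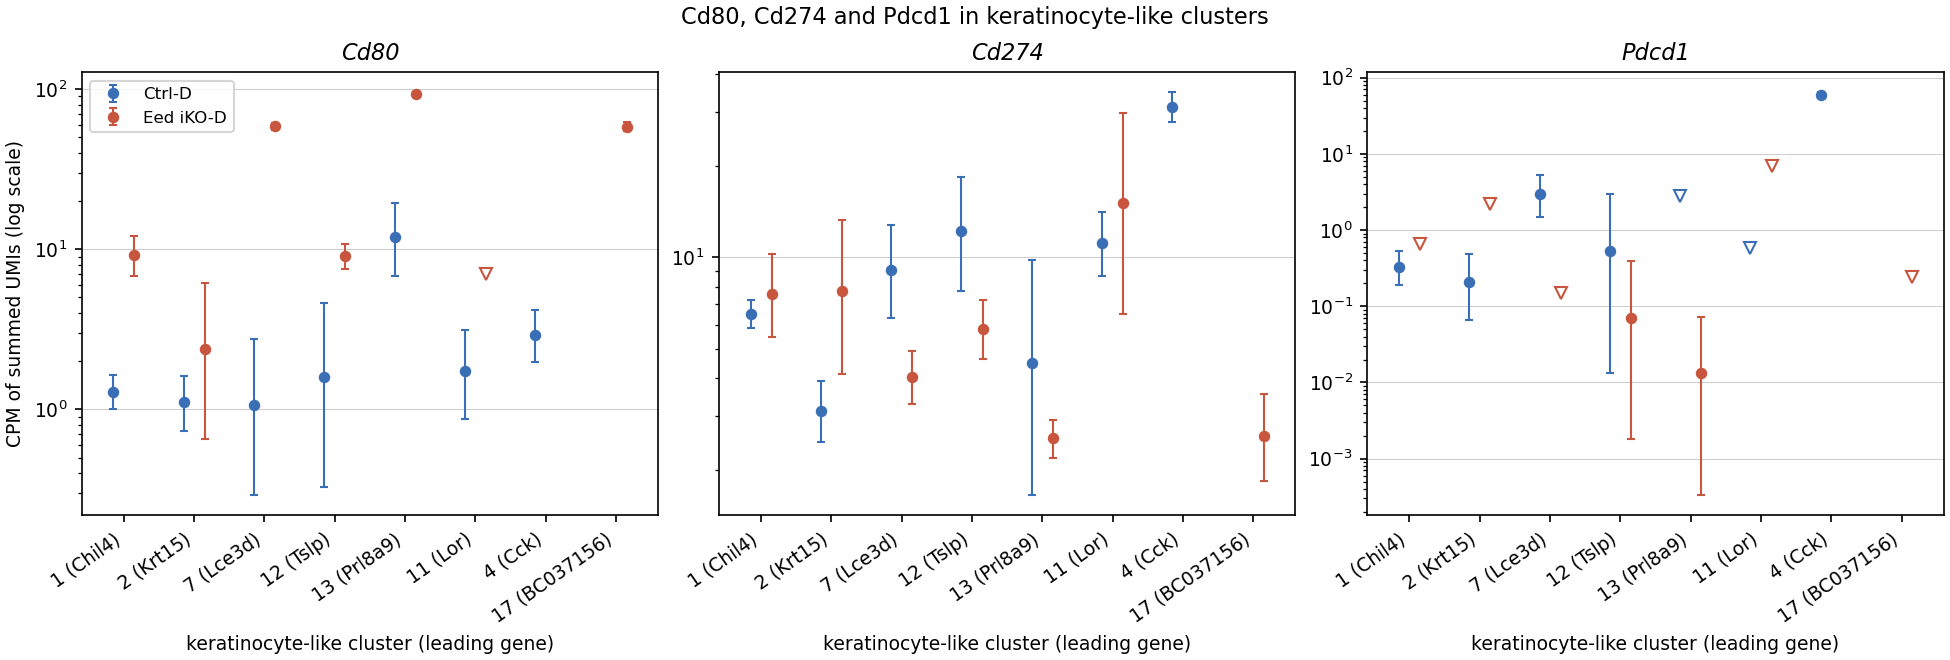
Levels (CPM, log axis) by keratinocyte-like cluster in Ctrl-D and Eed iKO-D, with exact 95% Poisson intervals. Cd80 in Eed iKO-D ranged from 2.39 CPM in the Krt15-led cluster to 93.1 CPM in the cluster led by Prl8a9, among clusters with a Cd80 UMI.

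Cd274 in keratinocyte-like cells depended on a cluster that held Ctrl-D cells and was led by Cck. There Cd274 was at 31.2 CPM in 28.3% of cells, which gave 322 of the 870 Ctrl-D UMIs. Without it Cd274 was at 6.12 and 3.46 CPM, a ratio of 0.565. Pdcd1lg2 was then at 0.0335 and 0.0654 CPM on 3 and 9 UMIs, too few for a call, with a ratio of 1.95 (0.487 to 11.2). In the Lce3d-led cluster Cd274 was at 9.10 and 4.04 CPM (ratio 0.444, 0.298 to 0.676) and in the Tslp-led cluster at 12.2 and 5.81 CPM (ratio 0.477, 0.297 to 0.794). The Chil4-led cluster did not differ beyond counting error, with 6.52 and 7.56 CPM (ratio 1.16, 0.821 to 1.60). Nor did the Prl8a9-led cluster, with 4.49 and 2.53 CPM on 6 and 193 UMIs (ratio 0.564, 0.254 to 1.55). The Krt15-led cluster went the other way, with Cd274 at 3.12 and 7.77 CPM (ratio 2.49, 1.27 to 4.51).

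Macrophage-like cells of Eed iKO-D had more Cd86 and less Pdcd1lg2. Cd86, the other ligand of CD28 and CTLA-4, was at 483 CPM in 62 Ctrl-D cells and 938 CPM in 1082 Eed iKO-D cells, a ratio of 1.94 (1.67 to 2.27). Thinned shares of cells with a Cd86 UMI were 38.9% and 58.8%, and unthinned shares 66.1% and 89.7%. At clustering resolution 0.5 the class took in dendritic cells and, in Eed iKO-D, further cells too, and held 140 and 1380 cells. Cd86 was then 868 and 824 CPM, a difference under 1.5-fold in the opposite direction. Pdcd1lg2, the second PD-1 ligand, was at 118 and 20.2 CPM, on 43 and 301 UMIs, a ratio of 0.171 (0.124 to 0.241).

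Cd274 and Cd80 differed less than 1.5-fold in macrophage-like cells as clustered at resolution 1.0. Cd274 was at 211 and 267 CPM (ratio 1.26, 1.01 to 1.60) and Cd80 at 113 and 144 CPM (ratio 1.28, 0.937 to 1.78). At resolution 0.5 Cd274 passed 1.5-fold, at 129 and 225 CPM (ratio 1.74, 1.47 to 2.08), and with classes from each cell's own markers Cd80 did, with a log2 ratio of 1.19 (0.44 to 2.07). Of the 4 ligands 1 was higher and 1 lower, against 29.7% and 22.8% of 13088 genes. Markers of other cells were present in this class, with Krt5 and Krt14 together at 2925 CPM in Ctrl-D and 2108 CPM in Eed iKO-D. The dendritic markers Flt3, Cd207, Ccr7 and Ccl22 summed to 198 and 35.2 CPM and the Cd3 genes to 43.9 and 1.34 CPM, so both were lower in Eed iKO-D, as Pdcd1lg2 was. The part of these markers in the ligand values was not tested.

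Neutrophil-like cells had the highest Cd274 level of the 4 ligand classes in Ctrl-D. Cd274 was at 1013 CPM in 140 Ctrl-D cells (246 UMIs) and 278 CPM in 1363 Eed iKO-D cells (2482 UMIs), a ratio of 0.275 (0.241 to 0.314). The Ctrl-D cells were shallow, with a median of 1291.5 UMIs against 4711. Among cells of at least 1500 UMIs, 36 and 1354 in number, Cd274 was 834 and 279 CPM. Under a stricter filter that left 7 Ctrl-D cells Cd274 was at 202 and 295 CPM on 12 Ctrl-D UMIs, a ratio of 1.46 (0.832 to 2.82).

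Cd80 in neutrophil-like cells was at 346 and 164 CPM, and in cells of at least 1500 UMIs at 136 and 164 CPM, where the ratio of 1.20 (0.738 to 2.11), on 16 Ctrl-D UMIs, showed no difference beyond counting error. Pdcd1lg2 was at 41.2 and 13.8 CPM, on 10 UMIs in Ctrl-D, and Cd86 at 24.7 and 53.7 CPM, on 6 UMIs. Of the 4 ligands 1 was higher and 3 lower, against 35.5% and 24.4% of 12382 genes. Krt5 and Krt14 together stood at 3431 CPM in Ctrl-D and 9294 CPM in Eed iKO-D in these cells, and their part was not tested.

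Dendritic cell-like cells had the highest Cd86 of the 4 ligand classes in both libraries. It was at 1149 CPM in 75 Ctrl-D cells and 2167 CPM in 23 Eed iKO-D cells, a ratio of 1.89 (1.70 to 2.09), and was found in 97.3% and 95.7% of them. Cd80 was at 128 and 365 CPM (ratio 2.85, 2.14 to 3.81) and Pdcd1lg2 at 18.0 and 50.8 CPM on 12 and 17 UMIs. Cd274 was at 91.7 and 108 CPM. Of the 4 ligands 3 were higher and 0 lower, against 26.1% and 24.1% of 5993 genes. The markers of the class differed too, with Cd207 at 1878 and 415 CPM, Ccr7 at 200 and 383 CPM, the C1q genes at 370 and 705 CPM, and Krt5 and Krt14 together at 984 and 1886 CPM, and their part in the ligand values was not tested. The Eed iKO-D values rest on 23 cells, and when each cell was classed by its own markers 7 and 1 cells were left.

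**Figure D3:**
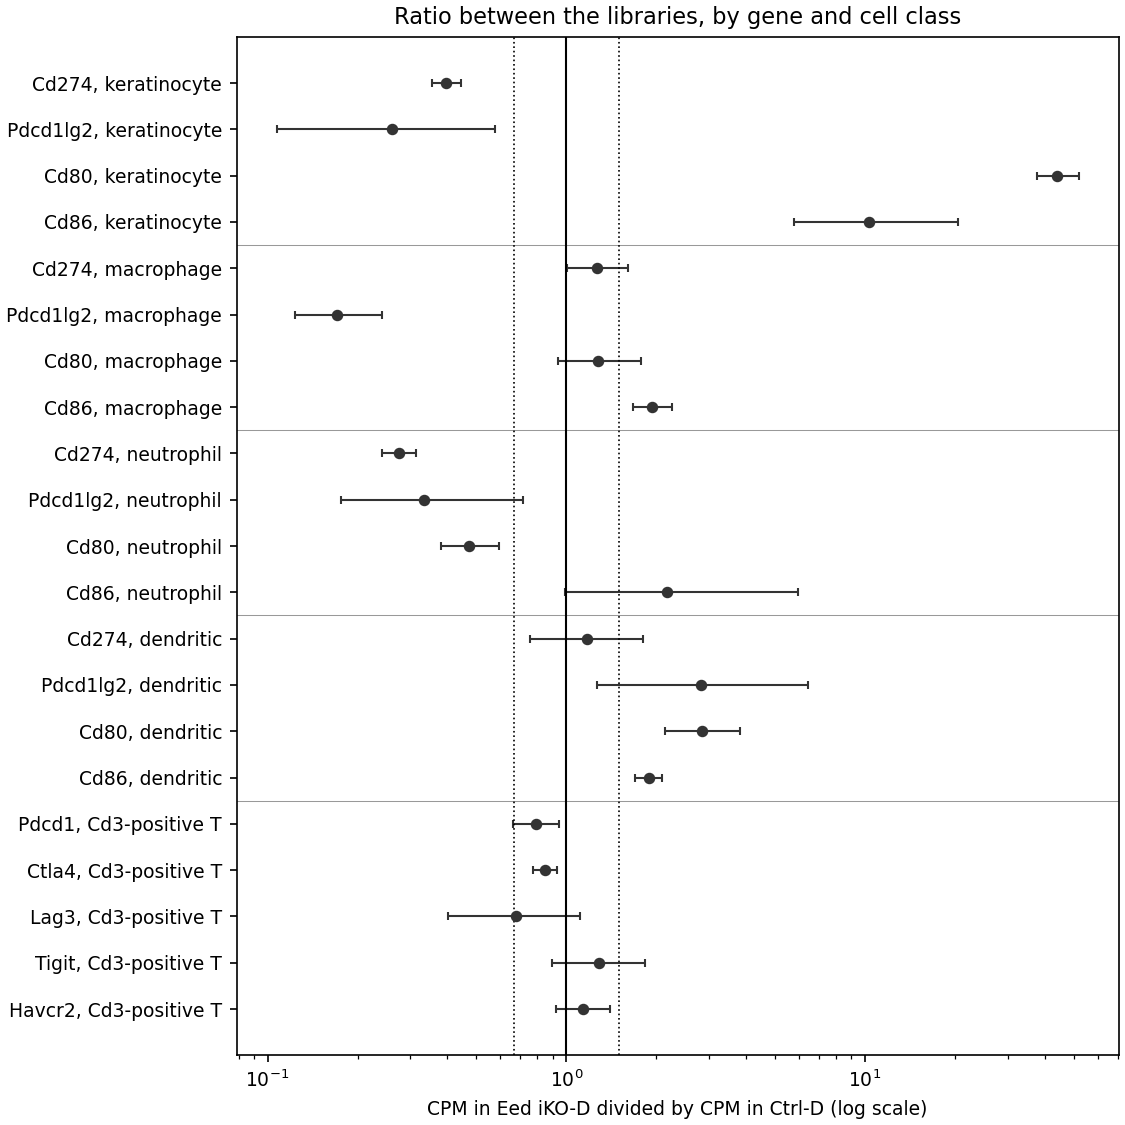
Ratio of Eed iKO-D over Ctrl-D (log axis) for each gene in the classes where it was read, with exact 95% intervals and dotted lines at 1.5-fold. Cd80 in keratinocyte-like cells lay at 44.0, while the 5 receptors in Cd3-positive T cell-like cells lay between 0.681 and 1.28.

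The main source of Cd274 and Cd86 UMIs differed between the libraries, while that of Cd80 was the same. Of the Cd274 UMIs of Ctrl-D 53.1% were in keratinocyte-like cells, while in Eed iKO-D 47.2% were in macrophage-like and 29.4% in neutrophil-like cells. Keratinocyte-like cells held 33.2% of the Cd80 UMIs of Ctrl-D and 60.6% of those of Eed iKO-D. Cd86 UMIs lay mainly in dendritic cell-like cells in Ctrl-D (764 of 1019 UMIs) and in macrophage-like cells in Eed iKO-D (81.7%). These shares move with the number of cells of each class in a library.

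The receptors differed little in Cd3-positive T cell-like cells, of which Ctrl-D held 439 and Eed iKO-D 119. Ctla4 was at 726 CPM (689 to 766) in Ctrl-D and 617 CPM (570 to 667) in Eed iKO-D, a ratio of 0.85 (0.773 to 0.934). Pdcd1 was at 214 and 169 CPM, a ratio of 0.792 (0.66 to 0.947). With the doublet calls kept in Ctrl-D these became 601 and 617 CPM for Ctla4 and 178 and 169 CPM for Pdcd1, ratios of 1.03 and 0.949.

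The intervals of the other receptors' ratios all included 1. Havcr2 was at 128 and 146 CPM (ratio 1.14, 0.927 to 1.40), Tigit at 41.7 and 53.6 CPM (ratio 1.28, 0.896 to 1.83) and Lag3 at 32.3 and 22.0 CPM (ratio 0.681, 0.403 to 1.11). None of the 5 receptors was higher or lower by 1.5-fold, against 18.1% of 9529 genes higher and 19.9% lower. The Cd3 genes themselves were lower in Eed iKO-D, with Cd3d at 800 and 266 CPM. Summed Krt5 and Krt14 in the T cell-like class amounted to 2355 CPM in Ctrl-D and 3489 CPM in Eed iKO-D. The part of either in the receptor values was not tested.

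Shares of T cells with a receptor UMI depended on depth. Unthinned, Pdcd1 was found in 36.9% of Ctrl-D and 42.0% of Eed iKO-D cells, and after thinning in 23.9% and 16.8%. Ctla4 went from 61.7% and 68.9% to 48.8% and 45.4%. At least 2 receptors were found in 26.1% and 19.3% of thinned cells, and at least 3 in 2.93% and 4.20%. Unthinned, those shares were 46.9% and 55.5% for at least 2 receptors and 17.5% and 28.6% for at least 3.

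Foxp3-positive cells, the regulatory T cells, had the highest Ctla4 of the 4 T cell groups in both libraries. They made up 29.2% and 27.7% of Cd3-positive T cells, and their Ctla4 was at 1183 and 1269 CPM (ratio 1.07, 0.945 to 1.22). Tigit was at 64.8 and 87.9 CPM in them, Lag3 at 42.7 and 52.7 CPM, Havcr2 at 137 and 105 CPM and Pdcd1 at 150 and 155 CPM, and the intervals of the ratios of Tigit, Lag3 and Havcr2 included 1. Cd8-positive cells, 105 and 16 in number, had Pdcd1 at 374 and 188 CPM on 166 and 24 UMIs, a ratio of 0.501 (0.312 to 0.771). Their Havcr2 was at 194 and 328 CPM (ratio 1.69, 1.14 to 2.47), and their Tigit at 24.8 and 78.2 CPM on 11 and 10 UMIs. Lag3 in Cd8-positive cells was at 49.6 and 15.6 CPM on 22 and 2 UMIs, with a ratio of 0.315 (0.0359 to 1.28) that does not separate the libraries.

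The group called gamma-delta, 69 and 15 cells, held those with a Trdc or Tcrg-C UMI and no Foxp3 or Cd8 UMI. The name rests on these UMIs alone, and the identity of the cells was not tested. A regulatory T cell whose Foxp3 was missed could fall here, and this was not tested. The group differed most in Ctla4. Ctla4 was at 3.41 CPM in Ctrl-D on 1 UMI and 207 CPM in Eed iKO-D on 31 UMIs, a ratio of 60.6 (10.1 to 2470). Pdcd1 in these cells was at 102 and 207 CPM and Havcr2 at 44.4 and 180 CPM. In the remaining T cells Ctla4 was at 786 and 433 CPM (ratio 0.551, 0.464 to 0.653). The pooled ratios near 1 thus covered subsets, as set by these UMIs, that differed in both directions. Subsets were set on unthinned cells, and the T cell-like class had median depths of 3029 and 6644.5 UMIs. A cell whose Foxp3, Cd8 or Tcrg-C transcripts were missed could fall in the remaining T cells. The part of depth in the subset shares and levels was not tested.

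**Figure D4:**
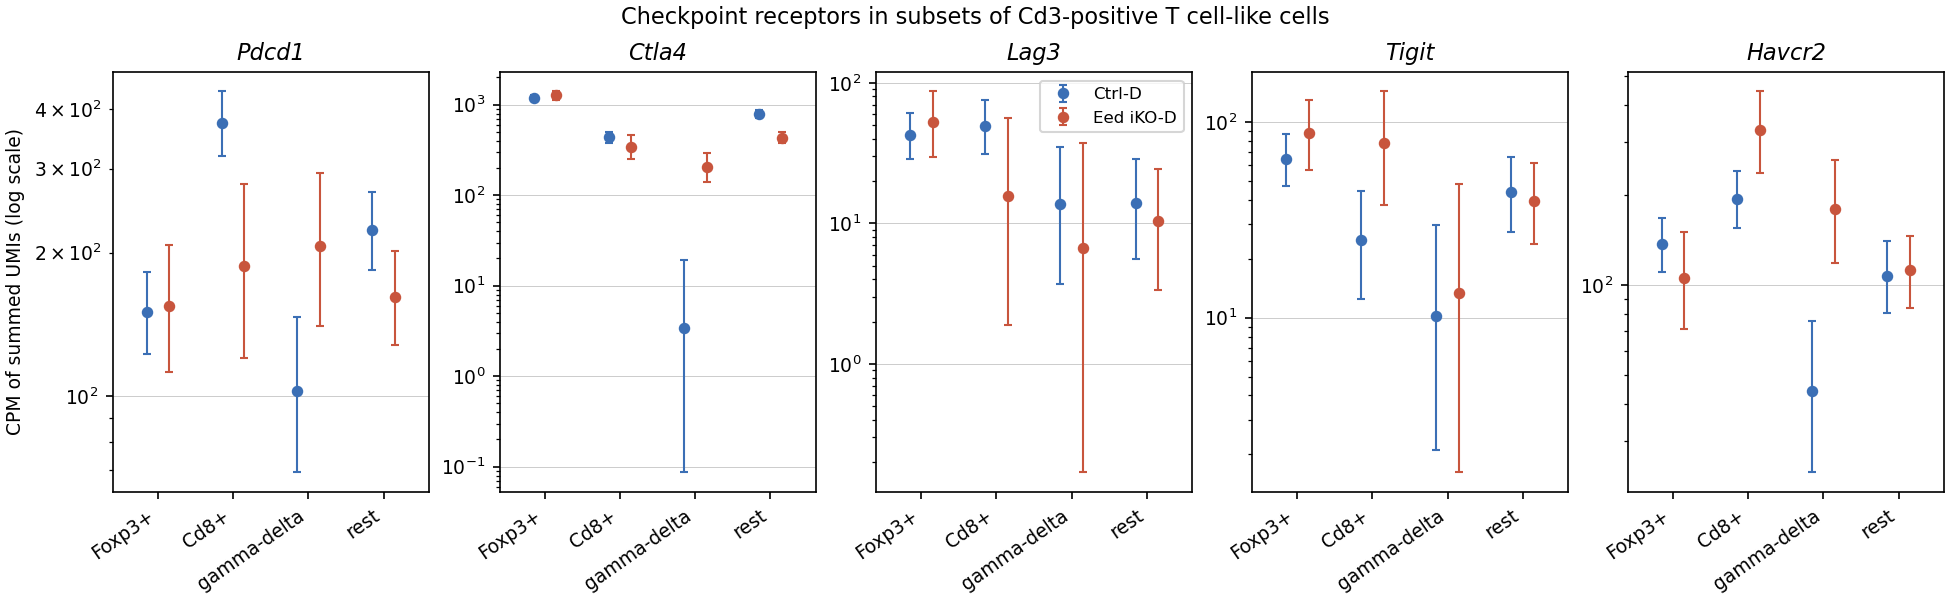
Level of each receptor (CPM, log axis) in T cell subsets of Ctrl-D and Eed iKO-D, with exact 95% Poisson intervals. Ctla4 in Foxp3-positive cells lay at 1183 CPM in Ctrl-D and 1269 CPM in Eed iKO-D, and in the group called gamma-delta at 3.41 and 207 CPM.

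Cells of the T cell-like class carried ligand UMIs too. In Cd3-positive T cell-like cells Cd274 was at 105 and 101 CPM, Pdcd1lg2 at 42.8 and 40.2 CPM, Cd80 at 40.7 and 48.8 CPM and Cd86 at 24.0 and 18.2 CPM. Each of these exceeded the fibroblast-like level of its library. The T cell-like class also held markers of antigen-presenting cells. Flt3, Cd207, Ccr7 and Ccl22 summed to 217 CPM in Ctrl-D and 167 CPM in Eed iKO-D, and the C1q genes to 121 and 24.7 CPM. The part of such cells in the ligand values was not tested. Mast cell-like cells, 18 and 43 in number, had Pdcd1lg2 at 446 and 70.1 CPM and Cd274 at 319 and 193 CPM.

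Taking every cell with a Cd3 UMI, whatever its cluster, gave 673 and 1021 cells, and all 5 receptors were then lower in Eed iKO-D. The share of all genes lower in these cells was not computed, so this count has no background. Pdcd1 was at 92.7 and 7.86 CPM and Ctla4 at 242 and 35.2 CPM. Most Cd3-positive cells of other named classes, 184 of 225 in Ctrl-D and 595 of 714 in Eed iKO-D, had Cd3e UMIs alone. In fibroblast-like cells of Eed iKO-D Cd3e was at 102 CPM and Cd3d at 0.216 CPM. A Cd3e UMI alone therefore did not mark a T cell in these matrices.

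Pdcd1 was also found outside T cells. In the Cck-led keratinocyte-like cluster of Ctrl-D it was at 59.2 CPM (54.6 to 64.1), with a UMI in 49.2% of 636 cells and up to 11 in 1 cell. This cluster gave 610 of the 644 keratinocyte-like Pdcd1 UMIs of Ctrl-D, where 60.1% of all Pdcd1 UMIs lay in keratinocyte-like cells and 38.8% in T cell-like cells. In the 626 cells with no UMI of Cd3d, Cd3g, Trac or Ptprc, the last a pan-leukocyte gene, Pdcd1 was at 58.7 CPM. Keratinocyte-like cells of Eed iKO-D had 2 Pdcd1 UMIs, and fibroblast-like cells had 1.76 CPM in Ctrl-D and 0.0154 CPM in Eed iKO-D. Cd3e was at 76.3 CPM in the same cluster.

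Other receptors had their own places outside T cells. Havcr2 was at 496 and 589 CPM in dendritic cell-like and 253 and 221 CPM in macrophage-like cells, both above its T cell level. Plasmacytoid dendritic cell-like cells, 24 and 28 in number, had Lag3 at 65.9 and 36.6 CPM and Ctla4 at 90.6 and 33.8 CPM. In classes of at least 50 cells outside T cells Ctla4 stood at 3.01 to 8.24 CPM in Ctrl-D and 3.29 to 8.90 CPM in Eed iKO-D.

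Of the genes of the interferon-gamma axis and Cd274 control, 21 of 24 were measured in neutrophil-like cells, and 2 were higher and 14 lower in Eed iKO-D. Their median log2 ratio was -1.07, against 0.20 over all genes. The Ctrl-D side rests on 140 shallow cells, with a median of 1291.5 UMIs against 4711 in Eed iKO-D. This list was not recomputed in deeper cells or under the stricter filter, where Cd274 and Cd80 in neutrophil-like cells changed. Gbp2, an interferon-induced GTPase, was at 202 and 21.3 CPM, and Socs1, a feedback inhibitor of cytokine signalling, at 32.9 and 5.27 CPM. Of all genes in these cells 35.5% were higher and 24.4% lower. In keratinocyte-like cells 1 of 23 was higher and 7 lower, against 38.5% and 16.8% of all genes, with the chemokine Cxcl9 at 36.7 and 2.29 CPM and Cxcl10 at 50.7 and 3.31 CPM. Within keratinocyte-like clusters the list's counts were mixed, with 5 higher and 2 lower of 21 in the Prl8a9-led, 8 and 5 of 22 in the Krt15-led and 9 and 5 of 20 in the Lce3d-led cluster, while the Chil4-led cluster had 7 and 6 of 22 and the Tslp-led cluster 3 and 7 of 21. In macrophage-like cells 5 of 23 were higher and 7 lower, near the 29.7% and 22.8% of all genes, and Cxcl9 was at 409 and 7.64 CPM. In dendritic cell-like cells 9 of 23 were higher and 4 lower, against 26.1% and 24.1% of all genes, with a median log2 ratio of 0.44.

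In Cd3-positive T cell-like cells 2 of 14 measured receptor partners and co-stimulators were higher and 4 lower, near the 18.1% and 19.9% of all genes. Cd27, a co-stimulatory receptor, was at 113 and 53.6 CPM, and Btla, an inhibitory one, at 30.2 and 132 CPM. Of 14 regulators of T cell exhaustion 3 were higher and 2 lower, again near those shares, with Eomes at 7.30 and 17.2 CPM and Id2 at 596 and 280 CPM.

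The genes whose log2(CPM + 1) pattern was most like each member's were ranked by Pearson correlation over 16 class-by-library profiles. The values describe these profiles, which share libraries and depth. Ctss (0.974) was closest to Cd86, Rab11fip1 (0.934) to Cd80 and Cd52 (0.958) to Pdcd1lg2. Trbc1 (0.982) was closest to Pdcd1, Cd40lg (0.986) to Ctla4, Foxp3 (0.966) to Tigit, Nckap1l (0.981) to Havcr2 and Esyt1 (0.908) to Lag3. Among the 3 genes closest to Cd274 were Rhog (0.959) and Btg1 (0.958).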

How the data were processed

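The authors deposited raw UMI counts of each gene in each barcode as 1 matrix per library. Cell Ranger is given as 7.1.0 per the file headers, 2.1.0 per the labels' protocols and 8.0 per the submitters' processing notes, and the build as mm10. Cells with at least 500 genes and at most 15% mitochondrial UMIs were kept. Scrublet, at an expected rate of 0.08, removed 132 of 7522 cells in Ctrl-D and 0 of 21484 in Eed iKO-D. Scanpy 1.11.5 clustered the cells on 2000 variable genes, without the members and companion genes, with 30 components, 15 neighbours and Leiden resolution 1.0, without batch correction. Each cluster took an "X-like" name from its markers. The naming thresholds, the clusters led by other genes, the motifs and the added alternatives were chosen after the data were seen.

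UMIs were summed per class and library and given as CPM. Poisson, Clopper-Pearson and conditional binomial intervals are exact and at 95%. List medians used 0.5 added UMI. The calculation was tested on simulated data. The members and lists were chosen with earlier results of these data known. Named companion genes were among the up to 3 highest and 3 lowest ratios of a list. Alternatives covered the cell filter, doublets, classes, clustering, scaling and thinning. Gene positions came from GENCODE, and promoters from RefSeq.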

Additional observations from a re-analysis of the deposited data

Results flagged for a closer look

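In the clusters of Eed iKO-D that could not be named, which entered none of the comparisons between named classes, 6 of the 9 genes had the lower end of their 95% interval above the fibroblast-like level of that library. Cd80 was at 40.1 CPM, Cd86 at 27.6 CPM, Havcr2 at 8.43 CPM, Ctla4 at 5.94 CPM, Pdcd1lg2 at 0.846 CPM and Pdcd1 at 0.124 CPM, the last on 5 UMIs. Cd274, at 10.2 CPM against 9.99 CPM, was higher only within its interval (9.23 to 11.2). The share of all genes passing the same rule was not computed, so the count of 6 says nothing particular about these genes. The cells of these clusters had a median of 2351 UMIs. In the largest cluster, with 10172 Eed iKO-D cells, 39.7% of UMIs were of the single gene Gm42418.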

How the results depend on the processing

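Of 212 log2 ratios recomputed under 16 alternatives for 21 results, 172 stayed within their limits, 29 moved and 11 reversed. The cause was not tested. No paired analysis was possible because each group had 1 library. For the counts of ligands and receptors under the alternatives below, the share of all genes was not recomputed.

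With classes from each cell's own markers, log2 ratios in keratinocyte-like cells became 0.00047 for Cd274 and 1.23 for Pdcd1lg2, Cd80 in neutrophil-like cells 0.17, and Pdcd1lg2 and Cd86 in dendritic cell-like cells -1.45 and -1.55. Cd86 in macrophage-like cells became 1.18 and Cd274 in neutrophil-like cells -2.09. Counts then became 0 lower in keratinocyte-like, 2 higher in macrophage-like, 0 higher in neutrophil-like, and 0 higher and 2 lower in dendritic cell-like cells, with 1 receptor higher and 1 lower. Pdcd1lg2 in keratinocyte-like cells was 0.96 without the Cck-led cluster and 0.75 as the median within shared clusters, each with 1 ligand lower. Cd80 there was 5.16 as the mean of each cell's CPM and 2.84 as the median within shared clusters.

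Cd86 in macrophage-like cells was -0.075 at resolution 0.5. With 1000 genes and 10% mitochondrial UMIs, Cd274 and Cd80 in neutrophil-like cells were 0.54 and 1.75, with 0 ligands lower and 1 receptor lower. In cells of at least 1500 UMIs they were -1.58 and 0.27. Cd274 in neutrophil-like cells was -1.34 without doublet removal and -1.57 with mitochondrial, ribosomal and Gm42418 UMIs left out. Ctla4 in Cd3-positive T cell-like cells was -2.78 in Cd3-positive cells of any cluster, where 5 receptors were lower, and 0.039 without doublet removal. With all T cell-like cells, with the mean of each cell's CPM and with the fibroblast-like level taken off, 1 receptor was lower.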
